A study of Mus musculus with 9 samples.

Results

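The small leucine-rich proteoglycans are a family of secreted matrix proteins, and 9 of their genes are described here, out of the 54532 genes in the deposited table. They are Dcn, Lum, Bgn, Fmod, Ogn, Aspn, Prelp, Omd and Podn, found by gene symbol. The family was picked because Dcn, the gene of decorin, had the largest fall with OSMI, so it was selected on the measured difference between rhWnt3a with OSMI and rhWnt3a. That difference is therefore given below as a description with no test. For Dcn no p is given in any comparison, since the 2 others share libraries with the one that chose it. All 9 members passed the filter on low counts that left 14004 genes to test. Lum and Aspn had no library at 10 counts or more with OSMI, and Podn had 4 such libraries in all. Lum had 3 such libraries with rhWnt3a and 1 in vehicle, so it passed the filter mainly through rhWnt3a.

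The cells were ST2, a wild-type stromal cell line from mouse bone marrow that the labels call a mesenchymal stem cell of bone, and the study asked how the O-GlcNAc modification of proteins takes part in the response to Wnt. Poly-A RNA was sequenced after 72 h in 3 groups of 3 libraries: vehicle, recombinant human Wnt3a (rhWnt3a) at 50 ng/ml, and rhWnt3a with OSMI at 20 µM. OSMI inhibits O-GlcNAc transferase, the enzyme that attaches O-GlcNAc to serine and threonine. The sample titles give the last group as rhWnt3a with OSMI, whereas its treatment label names OSMI alone and gives no dose of rhWnt3a. The study's methods list OSMI and rhWnt3a as separate treatments for sequencing, whereas its results describe rhWnt3a combined with OSMI. The groups here follow the titles, so none is read as OSMI alone. Below, "with OSMI" and, for libraries and comparisons, "OSMI" name the group titled rhWnt3a with OSMI. By its titles this group differs from vehicle by both agents, so their parts in that comparison cannot be told apart. The study calls its replicates biological, whereas the labels do not say that they were separate cultures, so p-values measure the spread between these libraries, which may be technical.

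Members of the family are built around a curved stack of leucine-rich repeats, bind collagen fibrils and shape their width and spacing. Many carry chains of sulfated sugar. Class I members, such as decorin and biglycan, mostly carry chondroitin or dermatan sulfate, whereas class II members, such as lumican and fibromodulin, can carry keratan sulfate. Several also hold growth factors such as transforming growth factor β in the matrix, and stromal cells, osteoblasts, tenocytes and chondrocytes are known sources.

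The libraries held 16135898 to 17583945 counts. Of the 10 marrow stromal markers, 8 were above 3 counts in every library, with Thy1 and Lepr at no more than 4 counts in any. Among the osteoblast markers Runx2 was present, whereas Sp7, Alpl, Bglap, Ibsp and Dmp1 had no more than 8 counts in any library. Of the markers of blood, macrophage and endothelial cells, Ptprc, Adgre1, Itgam and Cdh5 had no more than 2, whereas the highest library had 34 counts for Emcn, 30 for Cd68, 14 for Tek, 7 for Pecam1 and 6 for Csf1r. In each group 1 library stood apart from the other pair: vehicle 3, rhWnt3a 2 and OSMI 3. On the main axis of variation within groups, computed without the members and holding 54.8% of that variance, vehicle 3, rhWnt3a 2, OSMI 1 and OSMI 2 lay on one side, and vehicle 1, vehicle 2, rhWnt3a 1, rhWnt3a 3 and OSMI 3 on the other. No label names this split, and values within each side are given where they bear on a member.

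Levels per length of transcript are compared as FPKM, fragments per kilobase of transcript scaled to a common library total. In vehicle Bgn was the most abundant member at 609 ± 99.0 FPKM (SD, n = 3), followed by Ogn at 165 ± 37.0 FPKM and Prelp at 56.1 ± 11.9 FPKM. These 3 genes held nearly all of the family's summed level: Bgn alone held 72.6% in vehicle, 57.9% with rhWnt3a and 55.7% with OSMI. The summed mean level was 838 FPKM in vehicle, 489.9 FPKM with rhWnt3a and 266 FPKM with OSMI. The share of Bgn depends on its length, which is 6099 bases in the table and 2419 bases for the principal transcript. Per kilobase of principal transcript, a measure added after the data were seen, Bgn held 86.8%, 76.2% and 75.9% in the same order.

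The other 6 members were expressed at far lower levels. In vehicle their means were 3.46 FPKM for Aspn, 1.74 for Dcn, 1.59 for Omd, 0.979 for Fmod, 0.213 for Lum and 0.133 for Podn. Ranges of neighbours in this order overlapped for Aspn and Dcn, Dcn and Omd, Omd and Fmod, and Lum and Podn. With rhWnt3a Dcn stood at rank 4, at 7.37 ± 0.749 FPKM, clear of Prelp above it and of Omd below it, while Aspn, Fmod, Lum and Podn overlapped with their neighbours at 0.269 to 0.450 FPKM. With OSMI the range of Ogn met that of Prelp, Dcn had 0.234 ± 0.0232 FPKM, and Lum was lowest at 0.0304 FPKM. The table's length for Dcn, 5838 bases, counts every exon of all its transcripts, against 1758 bases for the principal transcript. Per kilobase of principal transcript, Dcn had rank 4 in all 3 groups, and 6 of 27 ranks moved.

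**Figure D1:**
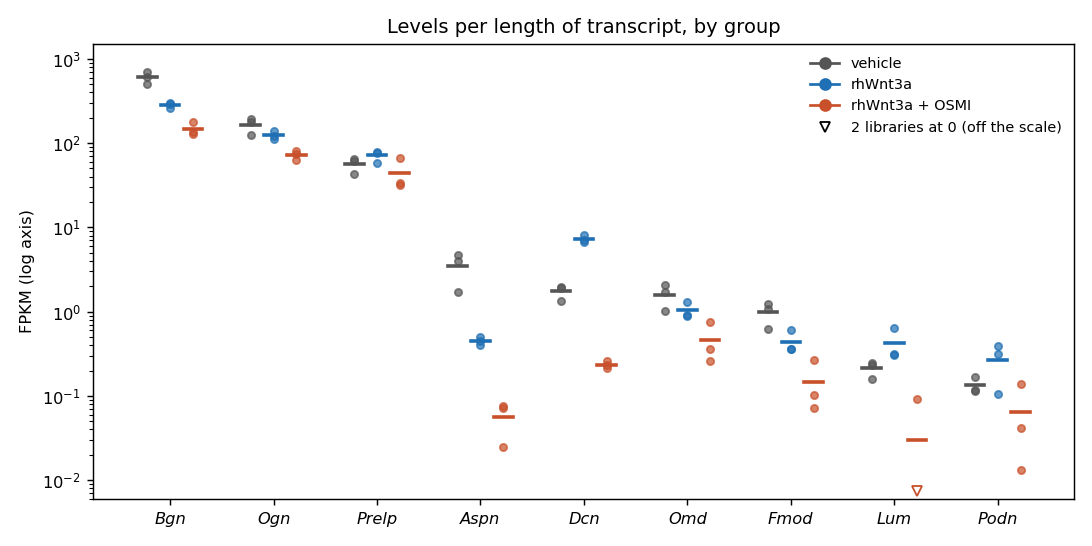
Levels of the 9 members in FPKM on a log axis, with a point per library and a bar at the group mean (n = 3). Bgn, Ogn and Prelp lie above 30 FPKM in every library, and Dcn has its highest points with rhWnt3a and its lowest with OSMI.

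Between genes, levels are set in FPKM. From here on a gene's own libraries are compared in CPM, counts scaled to a common library total after correction by the trimmed mean of M values. A gene was called when the adjusted p of edgeR's quasi-likelihood test was under 0.05 and the log2 fold change was beyond 0.5 in size. In bulk RNA, fewer cells that make a transcript and less transcript per cell cannot be told apart.

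With rhWnt3a, Bgn and Aspn were called lower, while the libraries of Dcn, of the same class, were all above vehicle. Of the 8 members other than Dcn, 2 were called lower and none higher, where 2.92% of all tested genes were called higher and 5.86% lower. The libraries of both groups did not overlap for 4 of these 8, against 26.4% of all tested genes. Of the 4, Bgn, Fmod and Aspn were lower and Lum was higher. Lum passed the filter mainly through rhWnt3a, so its separation is a description only. Their median log2 fold change was -0.50, and that of all tested genes was 0.04. Without the 3 libraries that stood apart, which leaves 2 vehicle and 2 rhWnt3a libraries on the same side of the axis, 5 of the 8 were called lower and 1 higher, and of all genes 11.4% were called lower and 6.7% higher in that fit.

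With OSMI added, the fitted log2 fold changes of all 8 against vehicle were below 0, as was that of Dcn, and 5 of the 8 were called lower: Bgn, Fmod, Ogn, Aspn and Omd. None was called higher. Of all tested genes 9.34% were called lower and 4.84% higher. Libraries did not overlap for 6 of the 8, against 38.8% of all tested genes. The median log2 fold change of the 8 was -1.91, against -0.01 for all tested genes. Without the 3 libraries all 8 were called lower, beside 15.7% of all genes in that fit, with the OSMI libraries left on the other side of the axis from the vehicle libraries left, so that side and OSMI cannot be told apart there. Both comparisons use the same vehicle libraries.

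Between rhWnt3a with OSMI and rhWnt3a, the difference that chose the family, all 9 fitted changes were below 0 as well. Libraries of these groups did not overlap for 7 of 9 members and for 33.7% of all tested genes, of which 3.05% were called lower and 1.69% higher. Dcn had the largest fall among called genes whose average log2 CPM was above 1, at -4.98, followed by Anxa8 at -4.13 and Nrep at -3.34. Without that limit on level, the fitted change of Mmp12, a metalloelastase, was more negative at -6.15, but its mean of 0.0191 CPM with OSMI lay under the floor of 3 counts, so that value depends on the fit.

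**Figure D2:**
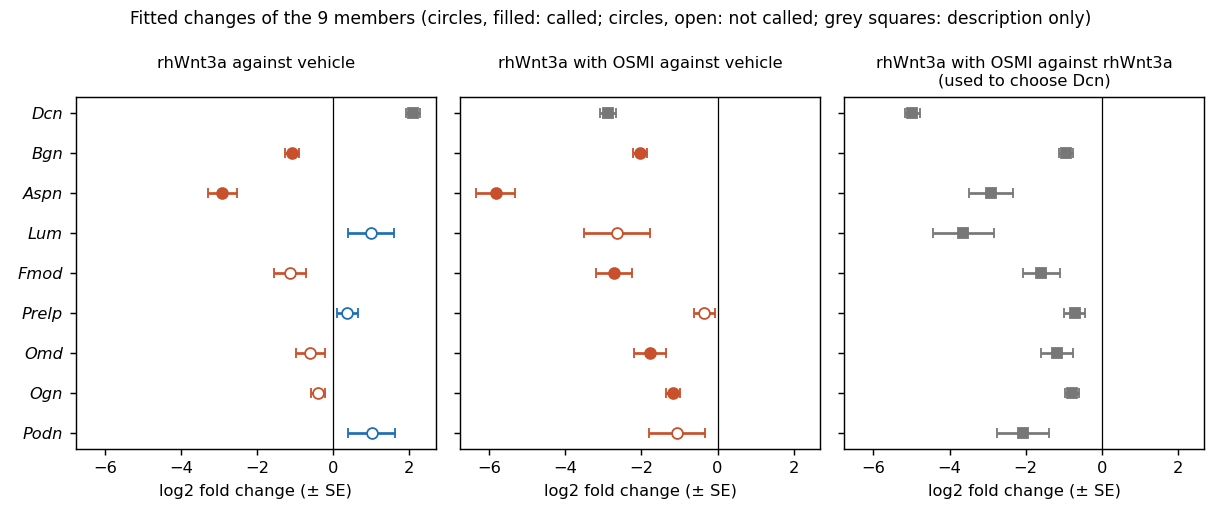
Fitted log2 fold changes of the 9 members with their standard errors in the 3 comparisons. Circles are filled where called and open where not, and grey squares are values given with no test, which are Dcn throughout and all members in the comparison that chose it. With OSMI against vehicle all 9 points lie below 0, from -0.35 for Prelp to -5.83 for Aspn.

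Among class I members, decorin binds collagen through its repeats and also binds transforming growth factor β and several receptor tyrosine kinases. Dcn (ENSMUSG00000019929, chr10:97479609-97518143, + strand, mm10) was at 11.3, 7.95 and 11.5 CPM in vehicle, at 40.5, 48.3 and 42.7 CPM with rhWnt3a, and at 1.27, 1.55 and 1.34 CPM with OSMI. The 3 groups were fully separate, with the rhWnt3a libraries highest and the OSMI libraries lowest. The fitted log2 fold change was 2.09 ± 0.17 (SE) for rhWnt3a against vehicle, -2.88 ± 0.20 for OSMI against vehicle and -4.98 ± 0.21 for OSMI against rhWnt3a. On the linear scale these were 4.27-fold higher, 7.37-fold lower and 31.5-fold lower. Within the sides of the axis the differences of log2 CPM were 2.06 and 2.12 for rhWnt3a against vehicle and -2.93 and -2.72 for OSMI against vehicle.

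Biglycan, the gene of which lies on the X chromosome, is the closest relative of decorin and is abundant in bone matrix. Bgn (ENSMUSG00000031375, chrX:73483602-73495933, + strand) was at 3731, 4355 and 3174 CPM in vehicle, at 1867, 1612 and 1816 CPM with rhWnt3a, and at 810.2, 851 and 1081 CPM with OSMI. No library of one group reached into another, and the level stepped down from vehicle to rhWnt3a to OSMI. Bgn fell by 1.09 ± 0.18 on the log2 scale with rhWnt3a (adjusted p = 0.0046, edgeR) and by 2.04 ± 0.19 with OSMI against vehicle (adjusted p = 0.00013, edgeR). Its fold changes were 2.13 and 4.11. So Bgn and Dcn, which share class and collagen partner, went opposite ways with rhWnt3a, and both were below vehicle with OSMI.

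Asporin lacks the usual sugar attachment site of its class, carries a run of aspartates, and binds collagen and calcium. Aspn (ENSMUSG00000021388, chr13:49544443-49567565, + strand) had 180, 150 and 73 counts in vehicle, 16, 21 and 18 with rhWnt3a, and 3, 3 and 1 with OSMI. The groups were separate, and vehicle 3 was the lowest vehicle library. In CPM the means were 8.22 ± 3.62, 1.08 ± 0.110 and 0.137 ± 0.0685 (SD, n = 3). Aspn fell by 2.92 ± 0.39 on the log2 scale with rhWnt3a (adjusted p = 0.0012, edgeR). Between rhWnt3a with OSMI and vehicle the fitted change was -5.83 ± 0.51 (adjusted p = 0.0001, edgeR). With 7 counts in the OSMI libraries the ratio is better read from summed counts. Vehicle was 59.2 times as high (95% interval 28.4 to 148, counting error only). For rhWnt3a the ratio was 7.92, a description only, since that comparison chose the family. Within the sides of the axis the fall with rhWnt3a was smaller on the side of vehicle 3, at -1.69, than on the other side, at -3.18.

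**Figure D3:**
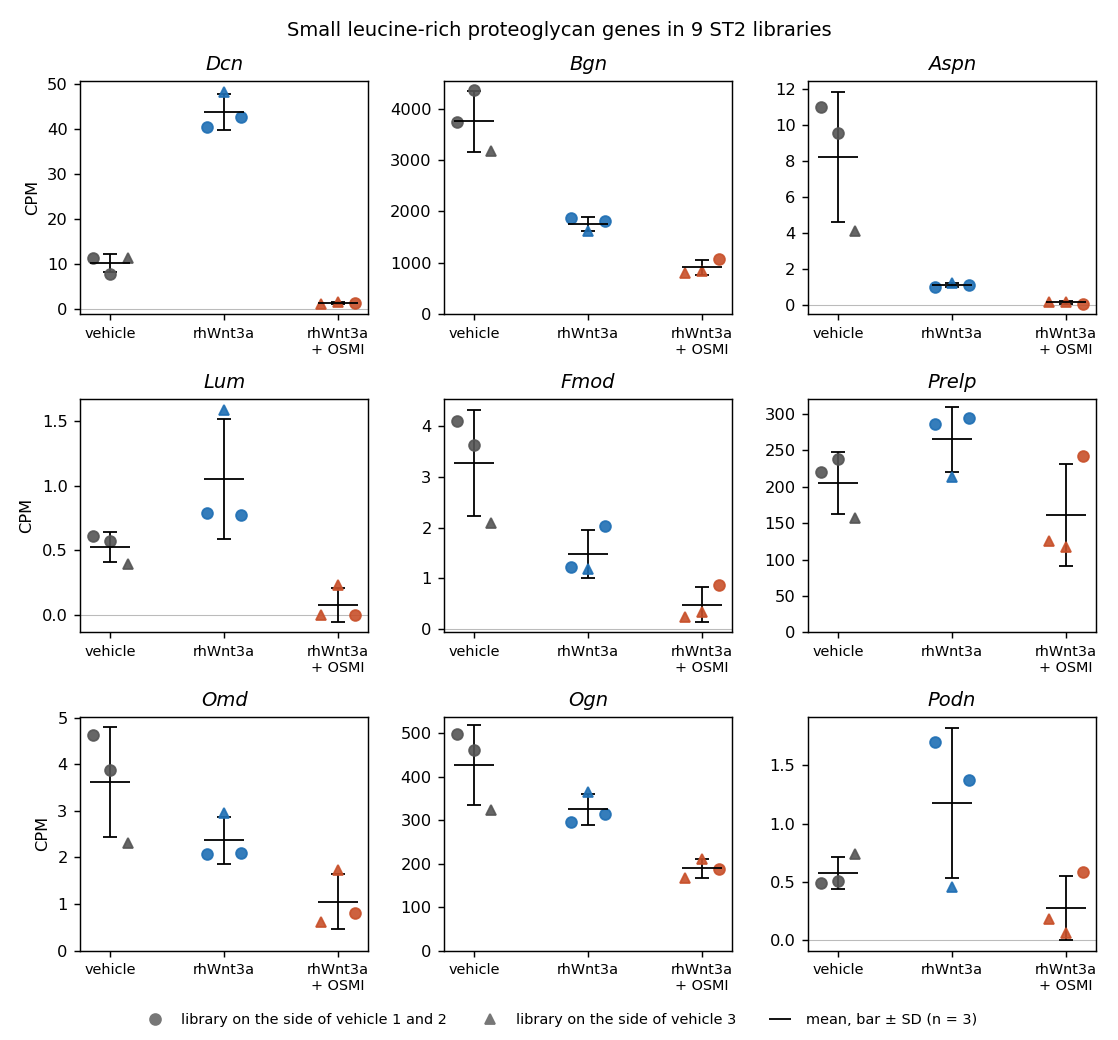
CPM of each member in the 9 libraries, with the group mean and SD (n = 3). Triangles mark libraries on the side of vehicle 3 and circles those on the other side of the within-group axis, and the 3 groups do not overlap for Dcn, Bgn and Aspn.

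Class II members were mostly low in these cells, apart from Prelp. Lumican orders collagen in cornea and skin, and fibromodulin, which can compete with it for collagen, does so in tendon. Lum (ENSMUSG00000036446, chr10:97565128-97572703, + strand) had 10, 9 and 7 counts in vehicle, 13, 28 and 13 with rhWnt3a, and 0, 4 and 0 with OSMI. The rhWnt3a libraries lay above vehicle and the OSMI libraries below it, with 0 to 4 counts, at or near the floor of 3 counts. Neither difference from vehicle was called: the log2 fold change was 1.0 ± 0.60 with rhWnt3a (adjusted p = 0.44, edgeR) and -2.64 ± 0.88 with OSMI (adjusted p = 0.072, edgeR). Without OSMI 2, which leaves OSMI libraries at 0 counts, the latter was called, but a fitted size then depends on the fit alone. By summed counts, with 4 in the OSMI libraries, rhWnt3a was 13.6 times as high as OSMI. That ratio is a description only, since this comparison chose the family and Lum passed the filter mainly through rhWnt3a.

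Fmod (ENSMUSG00000041559, chr1:134037254-134048277, + strand) was at 4.09, 3.63 and 2.09 CPM in vehicle, at 1.22, 1.19 and 2.03 CPM with rhWnt3a, and at 0.242, 0.344 and 0.873 CPM with OSMI. All groups were separate, although vehicle 3 came close to rhWnt3a 3. Fmod fell by 2.72 ± 0.48 on the log2 scale with OSMI against vehicle (adjusted p = 0.0045, edgeR). With rhWnt3a alone the change was -1.14 ± 0.42 and was not called (adjusted p = 0.15, edgeR).

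Prelp encodes a basic proteoglycan that ties heparan sulfate of basement membranes to collagen. Prelp (ENSMUSG00000041577, chr1:133910304-133921414, − strand) was at 219.95, 237 and 158 CPM in vehicle, at 286, 214 and 294 CPM with rhWnt3a, and at 125, 117 and 242 CPM with OSMI. OSMI 3 lay above all 3 vehicle libraries while OSMI 1 and OSMI 2 lay below them. No change was called, with log2 fold changes of 0.37 ± 0.28 for rhWnt3a (adjusted p = 0.57, edgeR) and -0.35 ± 0.28 for OSMI against vehicle (adjusted p = 0.44, edgeR). Without OSMI 3 the latter was called, at -0.76 ± 0.21 (adjusted p = 0.040, edgeR). Within the sides of the axis it was -0.38 and 0.08. An antisense transcript, Gm15851, shares 9.68% of the exon bases of Prelp, and whether reads were counted by strand is not given in the sources used here.

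Osteomodulin is an acidic, tyrosine-sulfated protein of bone that binds mineral. Omd (ENSMUSG00000048368, chr13:49582462-49592822, + strand) was at 4.64, 3.88 and 2.32 CPM in vehicle, at 2.07, 2.95 and 2.09 CPM with rhWnt3a, and at 0.604, 1.72 and 0.815 CPM with OSMI. Vehicle and rhWnt3a overlapped, and every OSMI library lay below both. Omd fell by 1.77 ± 0.41 on the log2 scale with OSMI against vehicle (adjusted p = 0.018, edgeR). This call was lost when vehicle 1, vehicle 2, OSMI 1 or OSMI 3 was left out, with adjusted p up to 0.071 (edgeR). The change with rhWnt3a was -0.60 ± 0.38 (adjusted p = 0.47, edgeR), and within the sides it was 0.34 and -0.99. Of the Omd transcript, 7.96% matched transcripts of 12 other genes at 97% identity or more over at least 100 bases, so part of its count is uncertain.

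Osteoglycin, also called mimecan, belongs to class III and is found in bone and connective tissue. Ogn (ENSMUSG00000021390, chr13:49608046-49624501, + strand) was at 499, 461 and 324 CPM in vehicle, at 296, 365 and 315 CPM with rhWnt3a, and at 167, 212 and 189 CPM with OSMI. Vehicle 3 lay within the rhWnt3a libraries, and all OSMI libraries lay below the rest. Ogn fell by 1.18 ± 0.19 on the log2 scale with OSMI against vehicle (adjusted p = 0.0025, edgeR), a 2.26-fold difference. With rhWnt3a the change was -0.39 ± 0.18 and was not called (adjusted p = 0.27, edgeR). On the side of vehicle 3 it was 0.17 and on the other side -0.65.

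Podocan is a class V member first described in kidney podocytes. Podn (ENSMUSG00000028600, chr4:108014791-108096445, − strand) had 8, 8 and 13 counts in vehicle, 28, 8 and 23 with rhWnt3a, and 3, 1 and 10 with OSMI. The libraries of all groups overlapped. Neither change from vehicle was called, at 1.01 ± 0.62 for rhWnt3a (adjusted p = 0.45, edgeR) and -1.06 ± 0.74 for OSMI (adjusted p = 0.36, edgeR), at 1 to 28 counts a library. The sign of both differences turned between the sides of the axis, with -0.57 and 1.42 for rhWnt3a and -1.89 and 0.18 for OSMI.

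**Figure D4:**
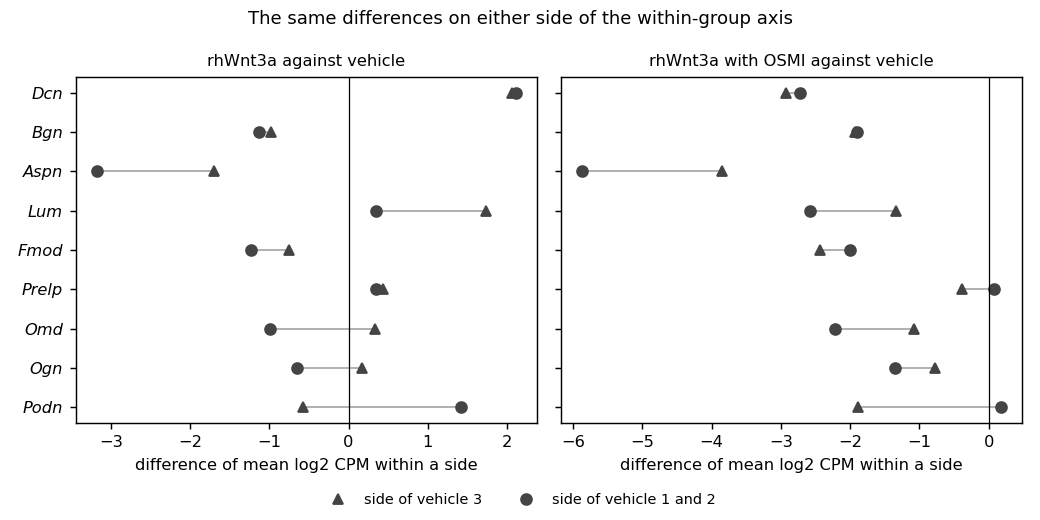
Differences of mean log2 CPM for each member, computed separately among libraries on the side of vehicle 3 (triangles, 1 library in some groups) and on the other side (circles). Both symbols lie on the same side of 0 for Dcn, Bgn, Aspn, Lum and Fmod in both panels, while for Ogn, Omd and Podn (left) and for Prelp and Podn (right) they do not.

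In the contrast that chose the family, the fitted log2 fold changes of the remaining members between rhWnt3a with OSMI and rhWnt3a ran from -0.72 for Prelp to -3.64 for Lum. Aspn was at -2.92 ± 0.58, Podn at -2.07 ± 0.69, Fmod at -1.59 ± 0.50, Omd at -1.17 ± 0.42, Bgn at -0.95 ± 0.18 and Ogn at -0.78 ± 0.18. The OSMI libraries were below the rhWnt3a libraries for all members but Prelp and Podn, where OSMI 3 overlapped.

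Family genes lie in clusters on the chromosomes, and neighbours could be set side by side. On chromosome 13, Ecm2, Aspn, Omd and Ogn follow each other on the + strand with gaps of 11.7, 14.9 and 15.2 kb. Ecm2, a related matrix protein gene that is not one of the 9, was at 9.88, 7.70 and 5.82 CPM in vehicle, 1.88, 2.50 and 2.39 CPM with rhWnt3a and 1.39, 2.12 and 1.92 CPM with OSMI. All 4 genes of this cluster were called lower with OSMI against vehicle, where 9.34% of all tested genes were. The call of Omd was lost when vehicle 1, vehicle 2, OSMI 1 or OSMI 3 was left out, and part of its count is uncertain. Ecm2 and Aspn were also called lower with rhWnt3a, where 5.86% of all tested genes were. Ecm2 fell by 1.78 ± 0.26 with rhWnt3a (adjusted p = 0.0022, edgeR) and by 2.10 ± 0.27 with OSMI against vehicle (adjusted p = 0.00081, edgeR). Cenpp, a centromere protein gene on the opposite strand, spans the cluster, and its exons share 7 bases with those of Aspn and none with the others.

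On chromosome 10, Dcn and Lum are neighbours on the + strand with a gap of 47.0 kb, and both were highest with rhWnt3a and lowest with OSMI. That shared order is a description only, since Dcn was chosen on these libraries and Lum passed the filter mainly through rhWnt3a. Lum had 0 to 28 counts a library, and neither of its differences from vehicle was called. Kera and Epyc lie next to Dcn and Lum and encode keratocan of cornea and epiphycan of cartilage. They had at most 2 counts in all 9 libraries summed and were not tested. On chromosome 1, Optc, which encodes opticin of the vitreous, lies 2.3 kb from Prelp, and Fmod lies 115.8 kb further. Optc was not called in any comparison.

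**Figure D5:**
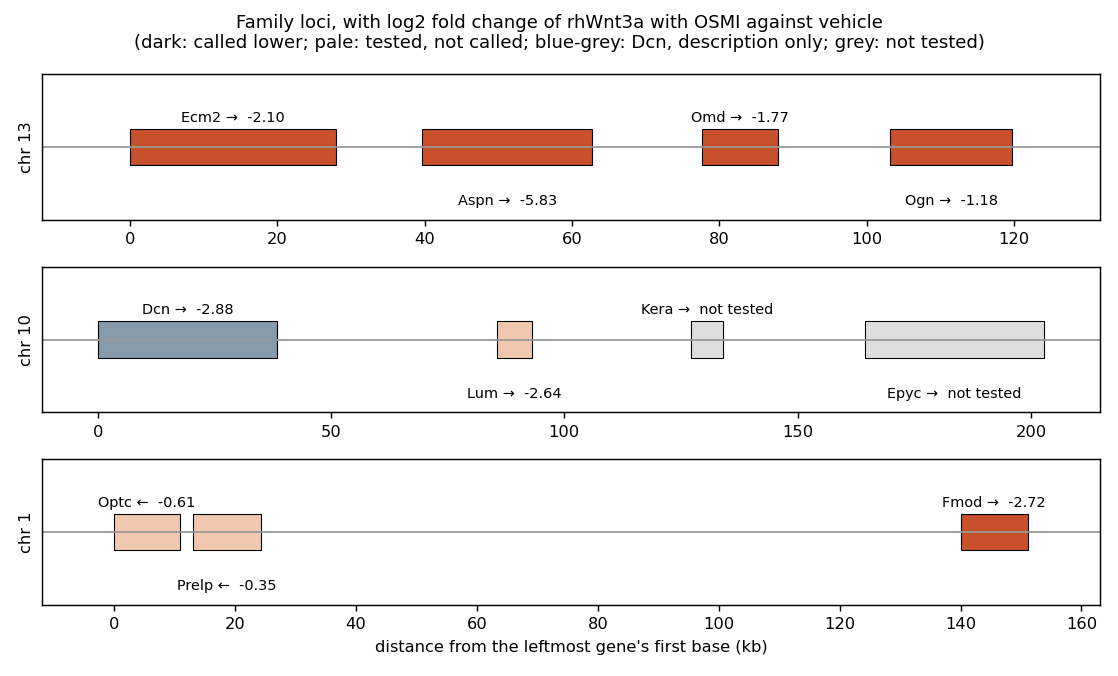
The family's loci on chromosomes 13, 10 and 1 drawn to scale by distance in kb, with arrows for the strand and the fitted log2 fold change of rhWnt3a with OSMI against vehicle. On chromosome 13 all 4 neighbours were called lower, from -1.18 for Ogn to -5.83 for Aspn, and the value of Dcn on chromosome 10 is a description. The call of Omd was lost when some single libraries were left out.

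Promoter sequences are shown for the chromosome 13 cluster, whose genes were all lower with OSMI, and for Bgn, the most abundant member. They are the 250 bases before the start of the gene from RefSeq on GRCm38.p6, all on the + strand, at chr13:49504560-49504809 for Ecm2, chr13:49544193-49544442 for Aspn, chr13:49582212-49582461 for Omd, chr13:49607765-49608014 for Ogn and chrX:73483351-73483600 for Bgn. Capitals mark matches on either strand to motifs that were spelled CTTTGA for the T cell factors, TATAAA for the TATA box, TGANTCA for the AP-1 factors, CAGAC for the SMAD factors, GACGTG for the hypoxia-inducible factors with TACGTG as their other form, CCAAT for the NF-Y factor, and GGGCGG for the SP1 factor. Overlapping matches run together. For Ogn the start in RefSeq lies 31 bases before the first base of the gene in the deposited table. The bases just after that start were not found in a GENCODE transcript of Ogn, which follows from this offset. For Bgn the start in RefSeq lies 1 base before that of the deposited table, and for the others it is the same base.
Ecm2: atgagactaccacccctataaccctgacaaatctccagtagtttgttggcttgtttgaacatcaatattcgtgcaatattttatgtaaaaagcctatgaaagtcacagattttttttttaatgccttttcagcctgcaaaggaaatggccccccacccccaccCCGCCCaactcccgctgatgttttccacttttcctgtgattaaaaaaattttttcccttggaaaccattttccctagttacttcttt
Aspn: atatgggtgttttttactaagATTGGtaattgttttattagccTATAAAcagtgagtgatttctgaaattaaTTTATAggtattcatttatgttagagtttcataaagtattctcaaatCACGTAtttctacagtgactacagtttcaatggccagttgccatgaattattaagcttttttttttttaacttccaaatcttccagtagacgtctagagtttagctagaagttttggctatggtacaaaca
Omd: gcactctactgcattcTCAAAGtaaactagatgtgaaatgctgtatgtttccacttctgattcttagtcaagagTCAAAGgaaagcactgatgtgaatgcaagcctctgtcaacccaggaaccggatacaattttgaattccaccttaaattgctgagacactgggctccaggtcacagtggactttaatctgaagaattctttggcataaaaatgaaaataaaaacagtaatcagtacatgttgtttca
Ogn: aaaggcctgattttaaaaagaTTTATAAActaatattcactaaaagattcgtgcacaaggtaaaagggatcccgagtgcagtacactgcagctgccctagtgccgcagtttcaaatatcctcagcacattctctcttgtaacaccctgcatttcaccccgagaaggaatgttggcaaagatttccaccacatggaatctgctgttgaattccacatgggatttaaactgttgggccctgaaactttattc
Bgn: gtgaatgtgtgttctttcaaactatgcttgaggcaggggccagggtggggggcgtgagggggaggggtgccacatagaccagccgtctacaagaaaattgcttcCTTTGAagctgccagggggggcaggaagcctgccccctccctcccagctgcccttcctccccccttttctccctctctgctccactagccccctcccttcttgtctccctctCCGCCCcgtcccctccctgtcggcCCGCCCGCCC

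The promoters of the cluster were poor in G and C, with 40.0% for Ecm2, 30.0% for Aspn, 38.4% for Omd and 42.0% for Ogn, against a median of 52.4% over 32851 promoters. That of Bgn had 64.4%. The T cell factor motif, which is read at the end of the Wnt pathway, was present in the promoters of Omd and Bgn and in 13.8% of all promoters of this length. The TATA box motif was present in those of Aspn and Ogn, 178 bases or more before the start, and in 12.4% of all. The promoter of Aspn also held the NF-Y motif (33.8% of all) and the second form of the hypoxia-inducible factor motif (2.7% of all). The SP1 motif was found in those of Ecm2 and Bgn and in 32.7% of all. The SMAD motif, the AP-1 motif and the first form of the hypoxia-inducible factor motif, held by 42.2%, 6.7% and 5.2% of all promoters, had no match in these 5. Such matches describe the letters and nothing else. Of the 17 family genes listed, 14 were in the promoter table, and of the 9 members 7.

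Of 8 further family genes 4 could be tested. Tsku, which encodes tsukushi, a secreted regulator of Wnt and bone morphogenetic protein signals, was at 14.7 to 16.0 CPM in vehicle, 27.1 to 33.2 CPM with rhWnt3a and 26.7 to 30.4 CPM with OSMI. It was 2.0-fold higher with rhWnt3a (adjusted p = 0.0011, edgeR) and 1.89-fold higher with OSMI (adjusted p = 0.0015, edgeR), each against vehicle. Thus Tsku was called higher in both comparisons with vehicle, and Ecm2 lower. Podnl1, a relative of Podn, was not called, at -1.03 ± 0.33 with OSMI against vehicle (adjusted p = 0.066, edgeR). Chad and Nyx were below the filter.

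The genes whose pattern over the 9 libraries was most like that of Dcn were Nrep, Tnfaip6, Itm2a, Vcan and Il1rl1. This list is a description only, since it uses the libraries whose difference chose Dcn. Likeness was the root mean square difference of log2 CPM after centring each gene, over 11430 genes with average log2 CPM above 1. The differences were 0.814, 1.03, 1.13, 1.13 and 1.13, beside a standard deviation of 2.0 for Dcn itself. Nrep had means of 4.72 CPM in vehicle, 23.2 CPM with rhWnt3a and 2.28 CPM with OSMI. Vcan, the gene of versican, a large chondroitin sulfate proteoglycan, had 385, 463 and 87.4 CPM. Among the members Lum was nearest to Dcn (1.0), at 0 to 28 counts a library for Lum, and Aspn farthest (2.01).

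Enzymes that build the sugar chains were counted by list. Of 19 tested genes for chondroitin and dermatan sulfate, 2 were called lower with rhWnt3a, where 5.86% of all genes were, and 4 with OSMI against vehicle, where 9.34% of all genes were, and none higher. Chst3, a chondroitin sulfotransferase, fell by 3.15 with rhWnt3a and had -3.98 with OSMI against vehicle on the log2 scale (adjusted p = 0.025 and 0.0087, edgeR). The standard errors were 0.74 and 0.80. Its means were 4.45 CPM in vehicle, 0.499 CPM with rhWnt3a and 0.274 CPM with OSMI, the last near the floor. Csgalnact1, which starts chondroitin chains, had means of 29.3 CPM in vehicle, 14.998 CPM with rhWnt3a and 5.07 CPM with OSMI, with log2 fold changes of -0.97 and -2.53 (adjusted p = 0.0059 and 3e-05, edgeR). B3galt6, of the linker to the protein, and Dsel, a dermatan sulfate epimerase, were called lower with OSMI against vehicle, at -0.71 and -0.52. The median log2 fold change of this list was -0.04 with rhWnt3a and -0.01 with OSMI against vehicle.

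Of 7 tested genes for keratan sulfate, 2 were called higher and 1 lower with rhWnt3a, where 2.92% and 5.86% of all tested genes were. With OSMI against vehicle 1 was called higher and 2 lower, where 4.84% and 9.34% of all tested genes were. Chst2, a sulfotransferase for N-acetylglucosamine, rose from a mean of 40.3 CPM in vehicle to 109.8 CPM with rhWnt3a and 136 CPM with OSMI (adjusted p = 0.00086 and 0.00027, edgeR). Chst1, which sulfates the galactose of keratan sulfate, fell, with log2 fold changes of -1.81 and -1.47 (adjusted p = 0.0014 and 0.0034, edgeR). B4galt1, a galactosyltransferase, was called higher with rhWnt3a at 0.77, and St3gal1, a sialyltransferase, lower with OSMI at -1.0.

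Of 13 tested collagens, to which the family binds, 9 were called lower with OSMI against vehicle, where 9.34% of all tested genes were. With rhWnt3a 2 of 13 were called lower, where 5.86% of all tested genes were. None was called higher in either comparison. The difference between the counts was not tested. Col2a1, the main collagen of cartilage, went from a mean of 163 CPM in vehicle to 15.4 CPM with rhWnt3a and 10.2 CPM with OSMI (adjusted p = 1.2e-05 and 5.8e-06, edgeR). Col11a1, its partner, fell, with log2 fold changes of -2.34 and -2.37 (adjusted p = 0.0026 and 0.0019, edgeR). Col3a1, a fibrillar collagen of soft tissue, fell by 2.19 with OSMI against vehicle (adjusted p = 0.0037, edgeR) and had -0.20 with rhWnt3a. Col5a3 fell by 1.85 with OSMI against vehicle (adjusted p = 0.0022, edgeR). Medians of the list were -0.47 with rhWnt3a and -1.06 with OSMI. Over all alternatives 4 to 12 collagens were called with OSMI against vehicle, with 4 to 11 when 1 library was left out and 5 with the replicate number as a block.

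Proteinases that can cut members of the family were listed together with Pcolce, an enhancer of procollagen processing and not itself a proteinase. This list moved in both directions with rhWnt3a. Of 12 tested, 4 were called higher and 1 lower, where 2.92% and 5.86% of all tested genes were. Mmp3 and Mmp13, stromelysin and a collagenase, rose by 2.19 and 1.59 on the log2 scale (adjusted p = 0.00045 and 0.00086, edgeR), as did Mmp12 at 1.80. Mmp2, a gelatinase, fell, with log2 fold changes of -1.18 with rhWnt3a and -2.35 with OSMI against vehicle (adjusted p = 0.0054 and 0.00011, edgeR). With OSMI against vehicle 5 of the 12 were called lower and none higher, where 9.34% and 4.84% of all tested genes were. Among the 5 were Pcolce at -1.73 and Adamts4, an aggrecanase, at -2.29. Mmp12 was also among them, at -4.35 to a level under the floor, so that its size depends on the fit.

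Of 12 tested genes for growth factors and receptors that members bind, 2 were called higher and 2 lower with rhWnt3a. With OSMI against vehicle 3 were called higher and 3 lower. Of all tested genes 2.92% were called higher and 5.86% lower with rhWnt3a, and 4.84% and 9.34% with OSMI against vehicle. Tlr2, an innate receptor that biglycan can engage, was at a mean of 135 CPM in vehicle, 28.7 CPM with rhWnt3a and 22.2 CPM with OSMI (adjusted p = 1.2e-05 and 5.8e-06, edgeR). Thbs1, the gene of thrombospondin 1, fell by 1.51 with rhWnt3a (adjusted p = 0.0019, edgeR). Wisp1, a matrix protein of the Wnt response, rose by 1.48 with rhWnt3a and by 0.78 with OSMI against vehicle (adjusted p = 0.00027 and 0.0066, edgeR). Tgfb3 rose by 1.11 with rhWnt3a (adjusted p = 0.0098, edgeR). With OSMI against vehicle the insulin-like growth factor receptor gene Igf1r was called higher at 0.87, and Tgfb1 was called lower at -0.77.

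Summed levels of marker lists are given beside the members, since several differed between the groups. The summed level of 5 chondrocyte markers was 293 to 414 CPM in vehicle, 93.7 to 119.8 CPM with rhWnt3a and 78.5 to 128 CPM with OSMI, mostly Sox9 and Col2a1, with Acan at no more than 12 counts and Matn3 at no more than 2. That of 5 adipocyte markers was 43.5 to 51.9, 10.4 to 13.1 and 11.9 to 14.7 CPM, with Adipoq at no more than 3 counts and Plin1 at no more than 1. That of 4 tendon markers was 18.1 to 22.3, 17.3 to 22.04 and 9.78 to 11.5 CPM, with Tnmd and Thbs4 at no more than 1 count. That of the marrow stromal markers, which include Col1a1 and Col1a2, was 17999.6 to 24657, 14822 to 17962 and 8228 to 15949 CPM. The 6 osteoblast markers, of which Runx2 gave nearly the whole level, summed to 44.8 to 58.5, 45.8 to 63.8 and 66.5 to 95.8 CPM. The higher sum with OSMI was that of Runx2 alone, at means of 52.5, 57.0 and 77.6 CPM. Sp7, Alpl, Bglap, Ibsp and Dmp1 had lower means with OSMI than in vehicle, at no more than 8 counts in any library. The 5 macrophage and blood markers summed to 1.10 to 1.98, 0.418 to 0.851 and 0.349 to 1.20 CPM, mostly Cd68. The 4 endothelial markers summed to 1.69 to 2.80, 0.243 to 0.478 and 0.423 to 0.745 CPM, with Emcn, the gene of endomucin, at means of 1.52, 0 and 0.0382 CPM. The part of these shifts in the members' values was not tested.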

How the data were processed

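Poly-A RNA-seq libraries of ST2 cells (3 vehicle, 3 rhWnt3a, 3 rhWnt3a with OSMI) were read from a table that the authors deposited with raw counts and FPKM per gene, on mm10. The submitters' processing notes name CASAVA, fastp, HISAT2 2.0.5 and featureCounts 1.5.0-p3. The annotation release and strand setting are not given in the sources used here. In the deposited table FPKM equalled counts divided by gene length and a library total. Its columns of group means, fold changes and p-values for each comparison were not used.

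Counts were tested with edgeR 4.0.16 (R 4.3.3) on 9 libraries: filterByExpr (minimum count 10, total 15), TMM scaling, quasi-likelihood F test, two-sided, Benjamini-Hochberg over 14004 genes. SE is the log2 fold change divided by the root of F. Log2 CPM used a prior count of 2. The exact permutation test of 3 against 3 libraries cannot go below p = 0.1 and was not used. Alternatives included DESeq2 1.42.0. Scripts were tested on simulated data. All 9 members are named, and from each list at most 4 called genes per comparison by size of change. Promoters came from RefSeq (GRCm38.p6), and gene ends matched GENCODE. Similar transcripts were sought with BLAST 2.17.0. Members and lists were chosen with earlier results of these data known.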

Additional observations from a re-analysis of the deposited data

How the results depend on the processing

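The number called of the 8 members other than Dcn was recomputed under 19 alternatives, 9 of which leave out 1 library. For rhWnt3a against vehicle, 2 were called in the reported fit, where 8.78% of all tested genes were, and 1 to 3 elsewhere (4.99% to 15.4%). The exception was 6 without the 3 libraries that stood apart, where 18.1% of all tested genes were called. For rhWnt3a with OSMI against vehicle, 5 were called, where 14.2% of all tested genes were, and 3 to 8 elsewhere (7.98% to 33.3%). The lows of 1 and 3 came with at least 10 counts in every library, where 4 of the 8 could be tested. For rhWnt3a with OSMI against rhWnt3a, which chose Dcn, 4 of the 8 met the rule, as did 4.74% of all tested genes. Counts in that comparison are a description of how the fits differ and not a test. This count was 2 in a fit of 6 libraries, beside 2.55% of all tested genes, and 8 with no filter on low counts (5.37%). With at least 10 counts in every library it was 1 of 4 tested (5%). It was 8 at an unadjusted p (16.2% of all tested genes) and 2 with a log2 fold change beyond 1 (2.71%). It was 7 without the 3 libraries that stood apart (12.7%) and 8 with the side of the axis as a covariate (28.8%). Leaving out 1 library gave 2 of the 8 throughout for rhWnt3a against vehicle, 4 to 6 for OSMI against vehicle and 0 to 4 for OSMI against rhWnt3a. Of all tested genes these fits called 4.99% to 10.5%, 8.53% to 16.2% and 1.41% to 5.33% in the same order. The count of 0 came without rhWnt3a 1, rhWnt3a 3 or OSMI 1, where 1.93%, 1.51% and 1.67% of all genes met the rule. Each of these fits left Lum, Bgn, Ogn and Aspn all short of it. The cause was not tested, other than that fewer genes or libraries enter some of these fits. Without the 3 libraries, the OSMI libraries left lie on the other side of the axis from the vehicle and rhWnt3a libraries left, so side and OSMI cannot be told apart there.

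After each gene was centred within its group, libraries that share a number had correlations of -0.49 to 0.44 over genes, with both signs. These values cannot decide whether numbers pair libraries, since the library that stood apart did not bear the same number in every group. With the replicate number as a block in the fit, 2, 5 and 1 of the 8 members other than Dcn met the rule in the 3 comparisons. In the last, which is a description, Aspn was left. Of all tested genes 5.78%, 9.26% and 1.66% (809, 1297 and 233) were called with the block, against 1230, 1986 and 664 genes without it.

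The fold changes of members under the alternatives numbered 499, with Dcn and the comparison that chose it included. None turned sign, 429 kept their side of the threshold, 37 lost a call and 33 gained one. The fold change of Dcn ran from 1.96 to 2.18, -2.99 to -2.78 and -5.04 to -4.88 in the 3 comparisons. Bgn was called in all 19 against vehicle with rhWnt3a and with OSMI, Aspn in all 18 that could test it there, and Fmod (18) and Ogn (19) in all with OSMI against vehicle. Over all genes, leaving out 1 library gave 716 to 1506, 1218 to 2328 and 203 to 764 calls. An unadjusted p gave 2155, 3186 and 2271, a log2 fold change beyond 1 gave 796, 1118 and 380, omission of the 3 libraries gave 2557, 3351 and 1789, and the side covariate gave 2033, 4670 and 4033. For OSMI against rhWnt3a DESeq2 gave 1241, no filter 1481 and the fit of 6 libraries 345. Over all alternatives the collagens called ranged from 2 to 6 with rhWnt3a and 4 to 12 with OSMI against vehicle, the proteinases from 3 to 7 and 4 to 8, the chondroitin and dermatan sulfate genes from 1 to 5 and 2 to 7, the keratan sulfate genes from 2 to 4 and 2 to 3, and the growth factors and receptors from 4 to 8 and 1 to 7. Depth limits Lum, Podn and Aspn with OSMI, where 3 counts are the floor (0.169 to 0.191 CPM).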
